A study of Mus musculus with 8 samples.

Results

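Lewis lung carcinoma (LLC) tumors that grew in *Ccrl2* KO mice were compared with LLC tumors that grew in WT mice. LLC is a line of mouse lung carcinoma cells that forms tumors when it is injected under the skin of C57BL/6 mice. The comparison rests on 4 of the 8 libraries of the series, chosen by their tumor and host labels: 2 libraries of LLC tumors from *Ccrl2* KO hosts and 2 libraries of LLC tumors from WT hosts. Every library holds 3 pooled tumors, collected 5 days after the graft by the labels. The other 4 libraries are B16 melanoma tumors from the same kinds of host, for which the study's legends give an earlier day of collection than the labels do. They entered the shared estimate of the spread and the tests of whether a host effect differed between the tumors. The KO hosts carry an inactivated *Ccrl2* gene in all their cells, both kinds of host are of the C57BL/6J background, and the grafted cells were not modified in either group. The study's mice were young adults unless stated otherwise, and the sex of these hosts is not given in the sources used here. Since the tumors were pooled, differences between animals within a pool were not measured, and the p-values below measure the spread between pools.

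CCRL2 is a receptor that binds chemerin, an attractant of leukocytes and a regulator of vessel growth, without a known signal of its own, and presents it to cells that carry the signaling receptor CMKLR1. A grafted tumor is a mixture of dividing carcinoma cells and of host cells, namely vessels, fibroblasts and leukocytes. Cells that lie far from a vessel stabilize the hypoxia-inducible factors (HIF), which turn on glucose uptake, glycolysis and factors that attract new vessels. In a bulk library, fewer cells of a type and less RNA per cell cannot be told apart.

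The values are the reads of a gene in a library scaled to 1 M reads on genes (RPM), given for pool 1 and then pool 2 of a group. The depth was estimated at 19.9 and 17.6 M reads on genes for the KO pools and at 30.8 and 28.5 M for the WT pools, and 3 reads correspond to 0.151 and 0.171 RPM in the KO pools and to 0.0973 and 0.105 RPM in the WT pools. These floors cover counting error only. *Ccrl2* itself stood at 11.5 and 5.15 RPM in the KO pools, against 9.4 and 5.25 RPM in the WT pools, and the 2 groups overlapped. The LLC cells kept their own gene, so this level checks nothing about the hosts. The tumor label fits its markers in part. The keratin *Krt8* of simple epithelia had 227 and 197 RPM in the KO pools, against 167 and 152 RPM in the WT pools. *Krt18* had 232 and 199 RPM in the KO pools, against 137 and 110.1 RPM in the WT pools. Of other such keratins, *Krt19* had 12.65 and 13.95 RPM in the KO pools, against 5.2 and 15.35 RPM in the WT pools. *Krt7* had at most 0.3 RPM in any LLC pool, against 7.25 to 10.95 RPM in the B16 pools. The melanocyte genes *Pmel*, *Dct*, *Tyr*, *Tyrp1* and *Mlana* summed to at most 1.2 RPM in any LLC pool. The libraries also differed in sex-linked and ribosomal RNA-like genes. The Y-linked gene *Ddx3y* had 31 and 34.9 RPM in the KO pools and 0 RPM in both WT pools, at least 313-fold higher in KO against a floor of 3 reads per WT library, and *Eif2s3y*, *Kdm5d* and *Uty* were likewise at 0 RPM in WT only. *Xist*, the RNA of the inactive X chromosome, had 632 and 709.7 RPM in the KO pools, against 323 and 296 RPM in the WT pools, so it was present in all 4 pools. *Mir6236*, an annotation on ribosomal RNA-like sequence, had 5.25 and 7.55 RPM in the KO pools, against 236 and 287 RPM in the WT pools. A bulk library does not show whether the Y-linked and *Xist* reads come from host or grafted cells. Host sex, differences between the grafted cells of each group and the RNA preparation were not tested as parts of the results below. None of these can be told apart from the host genotype here.

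Of 14706 genes tested, 2226 were called higher and 3402 lower in LLC tumors of KO hosts. Calls rest on limma, with Benjamini-Hochberg adjustment and a threshold of 0.05 on the adjusted p, on log2(RPM + 0.5), fitted to all 8 libraries, and all fold changes below are KO over WT on that scale. This is a background of 15.1 percent called higher and 23.1 percent called lower, against which every count of list members is to be read. After scaling with TMM factors the split turned round, with 3006 genes (20.4 percent) higher and 2334 genes (15.9 percent) lower, so the share of higher genes among the calls was 56.3% with TMM and 39.6% without. The median log2 fold change of all tested genes was -0.09. With the 4 LLC libraries fitted alone, 1066 genes (7.25 percent) were higher and 1104 genes (7.51 percent) lower. The pools of a group did not overlap with those of the other for 4056 genes higher in KO (27.6 percent) and 6179 genes lower in KO (42 percent). Changes of at least 2-fold were called for 477 higher and 633 lower genes. The host effect differed between LLC and B16 tumors for 2236 genes (15.2 percent), by the test of the difference itself. Of these genes, 185 did not reach 1 RPM in any B16 pool. In the differences given below, tumor cannot be told apart from collection day or from the sex-linked and ribosomal RNA-like differences of the LLC libraries. The genes named were chosen by their LLC values, which enter the difference.

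The pools of a group were closer to each other than to those of the other group. Over the tested genes, 220 (1.496%) differed by 2-fold or more between the 2 KO pools and 398 (2.71%) between the 2 WT pools, against 1146 to 1763 (7.79% to 11.99%) for the 4 pairings of a KO with a WT pool. Without KO pool 1 the counts were 1160 higher and 1521 lower, and without KO pool 2 they were 1253 and 1842. In every one of the 4 fits that leave out an LLC library, 972 genes were called higher and 1149 lower. Where a list below is given with no called gene in a direction, limma also had none there at an unadjusted p under 0.05, except for 2 lower genes of glycolysis, 1 lower gene each of keratinocytes and of eosinophils and basophils, 3 higher genes of fibroblasts and 1 higher gene of the WNT pathway. At an unadjusted p under 0.05 stood 7288 of all tested genes.

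The genes that moved furthest are taken as the 12 highest and 11 of the 12 lowest log2 fold changes among genes with at least 10 RPM in the higher group that were called with all 8 libraries, with the LLC libraries alone, with TMM factors and with any 1 LLC library left out, Y-linked and predicted genes aside. *Stra6* (ENSMUSG00000032327; chromosome 9, 58063788 to 58153996 in GRCm38), the cell surface receptor that takes up retinol, had 55.2 and 45.5 RPM in the KO pools, against 2.75 and 3.5 RPM in the WT pools (log2 fold change 3.81, SE 0.20, adjusted p = 9.61e-05). Both KO pools lay more than 10 times above both WT pools. *Tnr*, which codes for tenascin R of the nervous system matrix, had 13.3 and 15.4 RPM in the KO pools, against 0.4 and 0.95 RPM in the WT pools (log2 fold change 3.69), and *Edil3*, a secreted ligand of integrins, had 34.2 and 29.4 RPM in the KO pools, against 2.6 and 2.05 RPM in the WT pools (log2 fold change 3.52). Neither gene passed 3 RPM in a WT pool. *Ptn* codes for pleiotrophin, a heparin-binding growth factor, and stood at 248 and 183 RPM in the KO pools, against 19.4 and 22.7 RPM in the WT pools (log2 fold change 3.31, SE 0.19). *Col4a5* on the X chromosome (chromosome X, 141475385 to 141689234), a chain of basement membrane collagen, had 90 and 67.4 RPM in the KO pools, against 4.35 and 11.7 RPM in the WT pools, so that the WT pools also differed from each other. *Enpp2*, the enzyme autotaxin that makes lysophosphatidic acid, had 55.95 and 47.3 RPM in the KO pools, against 7.8 and 7.6 RPM in the WT pools, and *Amot*, a scaffold protein of cell junctions, had 65.5 and 55.3 RPM in the KO pools, against 6.65 and 10.2 RPM in the WT pools. The calcium-regulating glycoprotein *Stc1* and the endopeptidase *Phex* completed the higher group, with log2 fold changes of 2.48 and 2.43.

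Among the genes that fell furthest, *Tnn*, which codes for tenascin N (tenascin W) of the matrix, had 0.65 and 0.8 RPM in the KO pools, against 25.2 and 15.6 RPM in the WT pools (log2 fold change -4.06, SE 0.24, adjusted p = 0.000197). *Saa3*, an acute phase protein, had 80.8 and 67.4 RPM in the KO pools, against 626 and 797 RPM in the WT pools (log2 fold change -3.25, SE 0.16), with no overlap of the groups. *Mmp8*, the neutrophil collagenase, had 1.45 and 0.95 RPM in the KO pools, against 13.9 and 11.5 RPM in the WT pools, and *Acp5*, the tartrate-resistant phosphatase of osteoclasts and some macrophages, had 3.4 and 5.85 RPM in the KO pools, against 23.95 and 41.5 RPM in the WT pools. *Dkk3*, a secreted glycoprotein of the Dickkopf family, had 2.15 and 2.2 RPM in the KO pools, against 16.6 and 48.9 RPM in the WT pools, where the WT pools differed from each other more than the KO pools did. *Lars2*, a mitochondrial tRNA ligase whose locus holds ribosomal RNA-like sequence, had 70.8 and 87.6 RPM in the KO pools, against 1194 and 1362 RPM in the WT pools, a difference that goes with that of *Mir6236* above. *Col15a1*, *Kdr*, *Olfml2a* and *Fibin* also belonged to the lower group, with log2 fold changes of -2.76, -2.94, -3.25 and -2.67. Of these 23 genes *Stra6*, *Tnr*, *Phex* and *Tnn* stayed at or below 0.35 RPM in the B16 pools, where no host effect could be measured. For 17 of the other 19 genes, chosen for their LLC effect, the test of the difference between LLC and B16 tumors passed. The exceptions were *Kdr* and *Col15a1*, with a difference of -1.77 (adjusted p = 0.108) and -1.84 (adjusted p = 0.0608) on the log2 scale.

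**Figure D1:**
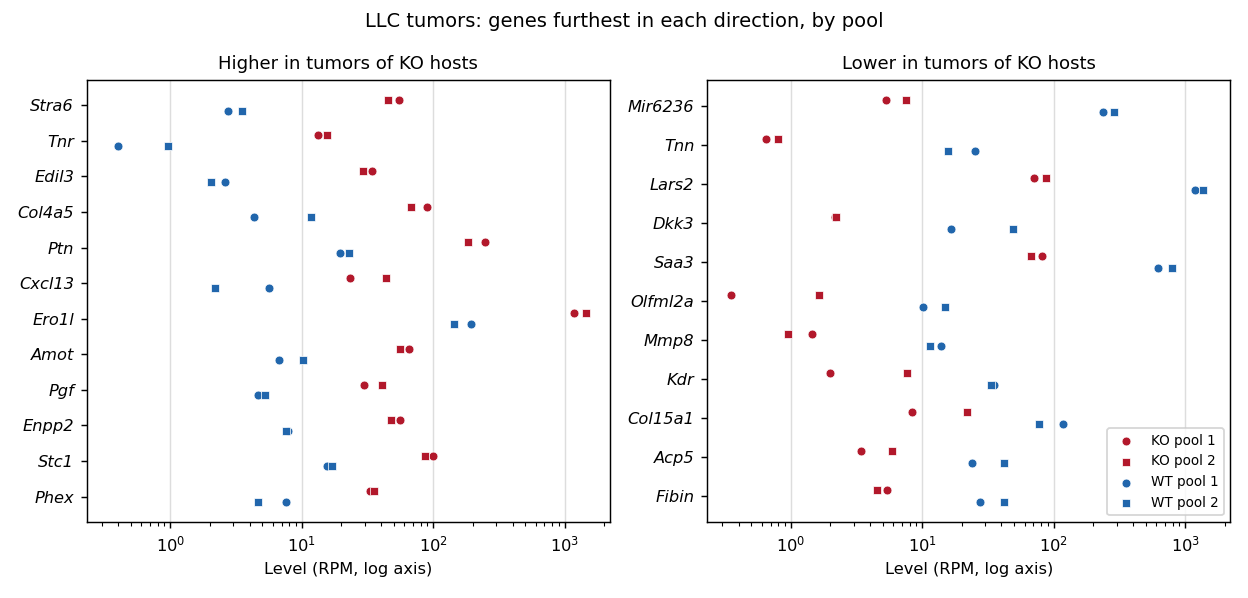
Levels in RPM, on a log axis, of the 12 genes furthest higher (left) and 11 of the 12 furthest lower (right) in LLC tumors of KO hosts, 1 point per pool of 3 tumors, KO pools in red above WT pools in blue. For every gene the KO points lie apart from the WT points, for Stra6 at 45.5 to 55.2 RPM in KO and 2.75 to 3.5 RPM in WT.

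Genes of the response to low oxygen rose in tumors of KO hosts, and so did the enzymes of glycolysis. Of 24 HIF targets outside glycolysis, 20 rose and 3 fell, with a median log2 fold change of 1.04, and of 20 glycolysis genes 15 rose and none fell, with a median of 0.60. The medians of the 2 KO pools were close when each was set against the WT mean, at 1.05 and 1.08 for the HIF targets and at 0.60 and 0.61 for glycolysis. The list of HIF targets gave 18 to 20 higher genes with any 1 LLC library left out, and the glycolysis list gave 12 to 16, with 2 lower genes without WT pool 1. The lists contain targets that other signals also drive. In B16 tumors the medians were 0.17 and 0.26.

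The HIF targets that rose cover several roles. *Ero1l* (ENSMUSG00000021831; chromosome 14, 45283087 to 45318771), the oxidase that forms disulfide bonds in the endoplasmic reticulum, had 1167 and 1455 RPM in the KO pools, against 195 and 145 RPM in the WT pools (log2 fold change 2.95, SE 0.19, adjusted p = 0.000226). *Ndrg1*, a stress-responsive gene of differentiation, had 605 and 756 RPM in the KO pools, against 136 and 118 RPM in the WT pools, and *Adm*, the vessel-dilating peptide adrenomedullin, had 139 and 156 RPM in the KO pools, against 28.6 and 31.3 RPM in the WT pools (log2 fold change 2.28, SE 0.11, adjusted p = 7.64e-05). Neither gene overlapped between groups. Of the mitophagy receptors, *Bnip3* had 461 and 472 RPM in the KO pools, against 154 and 123 RPM in the WT pools and *Bnip3l* had 338 and 349 RPM in the KO pools, against 139 and 141 RPM in the WT pools. *Slc2a1*, the glucose transporter GLUT1, had 563 and 677 RPM in the KO pools, against 179.6 and 139 RPM in the WT pools (log2 fold change 1.96). The oxygen sensors themselves, which are HIF targets as well, rose: *Egln3* had 485 and 488 RPM in the KO pools, against 149.8 and 157 RPM in the WT pools, and *Egln1* had 286 and 325 RPM in the KO pools, against 148 and 158 RPM in the WT pools. The collagen-modifying enzymes *P4ha1* and *Plod2* rose by 1.17 and 1.23 on the log2 scale. *Higd1a*, a small protein of the mitochondrial inner membrane, had 152 and 157 RPM in the KO pools, against 66.7 and 67.3 RPM in the WT pools (log2 fold change 1.20, SE 0.06, adjusted p = 0.000114), the smallest SE of the list. Against the direction of the list, the carbonic anhydrase gene *Car12* had 1 and 0.7 RPM in the KO pools, against 5.15 and 4.75 RPM in the WT pools, the collagen cross-linking oxidase gene *Lox* had 109 and 103 RPM in the KO pools, against 241 and 315 RPM in the WT pools, and *Ppfia4* fell by 0.81 on the log2 scale, a call held in 1 of the 4 fits without an LLC library. The host effect on *Ero1l*, *Adm*, *Ndrg1*, *Bnip3* and *Slc2a1* was larger in LLC than in B16 tumors, by 2.67, 2.29, 2.29, 1.61 and 1.61 on the log2 scale (adjusted p from 0.00102 to 0.00474).

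HIF binds DNA at the core letters ACGTG, so the promoters of the list were searched for them on both strands. The window ran from 250 bases before to 50 bases after the gene start in the RefSeq table of build GRCm38.p6, and 19 of the 24 genes had an entry. The letters stood in 13 of these 19 promoters (68.4%), against 5315 of all 27025 promoters in the table (19.7%). Of the 16 matched genes that rose, 11 had the letters. Of the other matched genes, *Ppfia4*, which fell, and *Ankzf1*, which was not called, had them too, and *Car12*, which fell, did not. The list was chosen as HIF targets, so its share describes the list and is no test of these tumors. A match is a description of the sequence and not a bound site, and no match in this window says nothing of the factor. The 3 promoters printed belong to called members of the list with a match and with the smallest adjusted p, in lower case with the matched letters in capitals, from 5′ to 3′ on the strand of the gene. *Higd1a*, at chr9:121857747-121858046 on the minus strand, has 1 match, read on the opposite strand. In *Bnip3*, at chr7:138909457-138909756 on the minus strand, 2 matches on the 2 strands overlap in the letters CACGTG, 108 bases before the start. *Ero1l* (Ero1a in RefSeq), at chr14:45318523-45318822 on the minus strand, has 1 match, on the opposite strand and 63 bases before the start.
Higd1a: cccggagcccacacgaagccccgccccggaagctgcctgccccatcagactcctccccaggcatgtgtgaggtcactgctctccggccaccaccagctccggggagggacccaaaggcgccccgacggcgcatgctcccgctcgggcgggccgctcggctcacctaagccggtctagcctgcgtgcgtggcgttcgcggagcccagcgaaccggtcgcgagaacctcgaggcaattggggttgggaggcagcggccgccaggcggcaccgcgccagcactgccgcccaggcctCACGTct
Bnip3: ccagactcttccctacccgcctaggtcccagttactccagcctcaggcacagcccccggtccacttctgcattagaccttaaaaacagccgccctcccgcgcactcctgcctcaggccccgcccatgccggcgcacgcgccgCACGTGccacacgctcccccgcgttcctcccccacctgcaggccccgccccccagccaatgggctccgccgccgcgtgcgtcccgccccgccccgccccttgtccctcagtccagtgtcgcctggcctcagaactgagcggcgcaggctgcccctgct
Ero1l: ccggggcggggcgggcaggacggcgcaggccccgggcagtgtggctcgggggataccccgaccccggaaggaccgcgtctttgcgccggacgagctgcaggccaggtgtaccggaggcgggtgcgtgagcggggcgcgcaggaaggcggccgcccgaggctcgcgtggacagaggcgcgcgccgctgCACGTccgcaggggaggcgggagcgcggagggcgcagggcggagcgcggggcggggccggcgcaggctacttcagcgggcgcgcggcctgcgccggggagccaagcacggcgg

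Genes of glycolysis rose along the path from glucose to lactate. *Pdk1*, a kinase that inhibits pyruvate dehydrogenase, had 309 and 319 RPM in the KO pools, against 122 and 140.1 RPM in the WT pools (log2 fold change 1.26, SE 0.09, adjusted p = 0.000294). Among the enzymes, *Pgk1* had 1672 and 1654 RPM in the KO pools, against 824 and 789 RPM in the WT pools and the early-step enzymes *Hk1* and *Gpi1* had 215 and 226 RPM and 1133 and 1164 RPM in KO, against 129 and 128 RPM and 595 and 604 RPM in WT. *Ldha*, which makes lactate, had 2604 and 2657 RPM in the KO pools, against 1762 and 1705 RPM in the WT pools (log2 fold change 0.60), and *Gapdh*, often taken as a constant gene, had 4438 and 4517 RPM in the KO pools, against 2340.1 and 2492 RPM in the WT pools (log2 fold change 0.89, SE 0.13). The difference from the effect in B16 tumors passed for *Pdk1* (1.13 on the log2 scale) and *Pgk1* (0.80), and did not pass for *Gapdh* (0.38, adjusted p = 0.177) or *Ldha* (0.46, adjusted p = 0.0714).

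The nuclear genes of oxidative phosphorylation moved the other way. Of 28 genes, 14 fell and none rose, with a median log2 fold change of -0.24. *Uqcrc1* of complex III had 127 and 126 RPM in the KO pools, against 178 and 182 RPM in the WT pools (log2 fold change -0.51), and *Sdhb* of complex II had 72.9 and 70.4 RPM in the KO pools, against 97.95 and 103 RPM in the WT pools. These steps are small, and the pools of a group were closer still. The count was 10 with TMM factors and 9 without KO pool 2. Of the 13 protein-coding genes of the mitochondrial genome 3 rose, *mt-Atp8*, *mt-Nd3* and *mt-Nd4l*, all at or under 2.85 RPM, and the WT pools differed by a median of 0.81 on the log2 scale. Without WT pool 1 the count was 10, and without WT pool 2, KO pool 1 or KO pool 2 it was 1.

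Cholesterol synthesis fell in tumors of KO hosts. Of 19 enzymes of the pathway, 12 fell and none rose, with a median log2 fold change of -0.61, and the median lay below 0 in both KO pools (-0.55 and -0.68). *Dhcr7*, the enzyme of a last step before cholesterol, had 10.5 and 9.65 RPM in the KO pools, against 18.7 and 21.7 RPM in the WT pools (log2 fold change -0.97, SE 0.13, adjusted p = 0.00227). Early in the pathway, the mevalonate kinase *Mvk* had 11.9 and 10.4 RPM in the KO pools, against 18.4 and 19.2 RPM in the WT pools. *Sqle*, which makes the epoxide of squalene, had 37.7 and 34.6 RPM in the KO pools, against 60.1 and 52.8 RPM in the WT pools. The groups overlapped for none of these 3 genes. In B16 tumors the list had a median of 0.16, and the difference passed for *Dhcr7* (-1.16), *Mvk* (-0.92) and *Sqle* (-0.79). Without KO pool 2 the count of lower genes was 6.

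In the list of serine synthesis and the amino acid response, 6 of 20 genes were lower and 2 higher. These shares lie near the 23.1 and 15.1 percent of all tested genes. The list median was -0.17, against -0.09 for all tested genes. The mitochondrial serine hydroxymethyltransferase *Shmt2* had 92.6 and 80.5 RPM in the KO pools, against 167 and 142 RPM in the WT pools, and the amino acid transporter *Slc7a5* had 84.8 and 88.8 RPM in the KO pools, against 152 and 133 RPM in the WT pools. The transporter of cationic amino acids *Slc7a1* rose by 0.43 and the stress factor *Ddit3* by 0.77 on the log2 scale. Without WT pool 2 the lower count was 11, without KO pool 2 the counts were 3 lower and 1 higher, and without WT pool 1 there were 4 higher.

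Of 15 genes of the oxidative stress response, on which the factor NRF2 acts, 8 fell, and of 16 targets of p53 7 fell. With the LLC libraries fitted alone these counts were 4 and 2. None rose in either list, and the medians were -0.43 and -0.51. *Me1*, the malic enzyme that makes NADPH, had 43.8 and 40.3 RPM in the KO pools, against 77.9 and 75.8 RPM in the WT pools (log2 fold change -0.86, SE 0.08, adjusted p = 0.000624). *Taldo1* and *G6pdx* of the pentose phosphate pathway had 106 and 102 RPM and 67.5 and 67.4 RPM in KO, against 184 and 156 RPM and 92.3 and 101 RPM in WT. *Gclm*, a subunit of the enzyme that starts glutathione synthesis, had 34.7 and 38.3 RPM in the KO pools, against 61.6 and 53.1 RPM in the WT pools. Of the p53 targets, the RNA-binding protein gene *Zmat3* had 76.6 and 62.3 RPM in the KO pools, against 138 and 131 RPM in the WT pools (log2 fold change -0.96, SE 0.11, adjusted p = 0.00142), *Phlda3*, an inhibitor of AKT, had 67.8 and 56.9 RPM in the KO pools, against 128 and 105 RPM in the WT pools, and *Ccng1* (cyclin G1) had 178 and 141 RPM in the KO pools, against 273 and 219.6 RPM in the WT pools. The p53 count was 4 without WT pool 1 and 2 without KO pool 2. The count for oxidative stress was 4 without KO pool 1, 5 without KO pool 2 and 5 with TMM factors.

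Chaperones of the endoplasmic reticulum and of heat shock moved in both directions. Of 19 genes of the unfolded protein response 6 rose and 3 fell, led by the chaperone *Dnajb9* with 80.4 and 87.5 RPM in the KO pools, against 38.1 and 31.8 RPM in the WT pools (log2 fold change 1.26, SE 0.11, adjusted p = 0.000611). The main chaperones *Hspa5* and *Hsp90b1* rose by 0.40 and 0.48 on the log2 scale, while *Herpud1* of protein degradation fell by 0.42. In the heat shock list 3 of 13 rose and 1 fell. The inducible HSP70 genes *Hspa1b* and *Hspa1a*, near-identical copies between which reads may be split, had 48.9 and 26.2 RPM and 11.6 and 7.05 RPM in KO, against 8.8 and 9.25 RPM and 3.7 and 3.7 RPM in WT. KO pool 1 was the higher of the KO pools for both genes, and the groups did not overlap. Of 20 immediate early genes 7 rose and 2 fell. *Ier3*, a survival gene of the stress response, had 217 and 203 RPM in the KO pools, against 112 and 69.8 RPM in the WT pools, and *Klf2*, a factor of endothelial cells and leukocytes, had 54.2 and 58.7 RPM in the KO pools, against 92.3 and 154 RPM in the WT pools. For the unfolded protein response the counts were 4 higher and 1 lower without KO pool 1, 2 and 1 without KO pool 2, and 9 and 1 with TMM factors. For heat shock they were 6 and 1 without WT pool 1, 3 and 3 without WT pool 2 and 3 and 0 without KO pool 2. For the immediate early genes they were 3 and 2 without WT pool 2, 2 and 1 without KO pool 1 and 1 and 1 without KO pool 2.

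Genes of cell division fell together. Of 25 genes of DNA replication 16 fell, with a median log2 fold change of -0.54, of 24 genes of mitosis 20 fell, with a median of -0.62, and none rose in either list. *Plk1*, a kinase of mitotic entry and exit, had 24.2 and 19.95 RPM in the KO pools, against 59.1 and 49.1 RPM in the WT pools (log2 fold change -1.27, SE 0.15, adjusted p = 0.00138), and *Cdc20*, the activator of the anaphase-promoting complex, had 41.9 and 41.5 RPM in the KO pools, against 88.9 and 81.3 RPM in the WT pools (log2 fold change -1.02, SE 0.12). Of the replication genes, *Rrm1* and *Rrm2*, the subunits of the enzyme that makes deoxynucleotides, had 94.8 and 86.1 RPM and 54.5 and 47.6 RPM in KO, against 166 and 153 RPM and 120.0 and 87.8 RPM in WT. *Mcm3* of the replicative helicase had 85.8 and 83.5 RPM in the KO pools, against 153 and 136 RPM in the WT pools. The WT pools differed from each other by a median of 0.20 (replication) and 0.25 (mitosis) on the log2 scale. Without KO pool 2, 12 replication genes and 11 mitosis genes were called.

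Ribosomal protein genes and the genes that build ribosomes moved in opposite directions. Of 30 genes of cytosolic ribosomal proteins 17 rose and none fell, with a median log2 fold change of 0.34, while of 20 genes of ribosome biogenesis 11 fell and none rose, with a median of -0.33. *Rpl32* had 1107 and 1098 RPM in the KO pools, against 747 and 624 RPM in the WT pools (log2 fold change 0.69). *Bop1*, a factor of the large subunit, had 47.95 and 46.7 RPM in the KO pools, against 75.6 and 71.3 RPM in the WT pools, and the rRNA methyltransferase *Nop2* had 57.3 and 61.2 RPM in the KO pools, against 101 and 82.1 RPM in the WT pools. Ribosomal protein genes have many processed copies in the genome, so their counts depend on how reads with several matches were treated. Both counts moved with single pools: without KO pool 1 they were 6 higher and 2 lower, without KO pool 2 they were 5 and 2, and without WT pool 1 there were 22 and 3. With TMM factors 6 biogenesis genes fell, and with the LLC libraries fitted alone 2 ribosomal protein genes and 2 biogenesis genes were called.

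**Figure D2:**
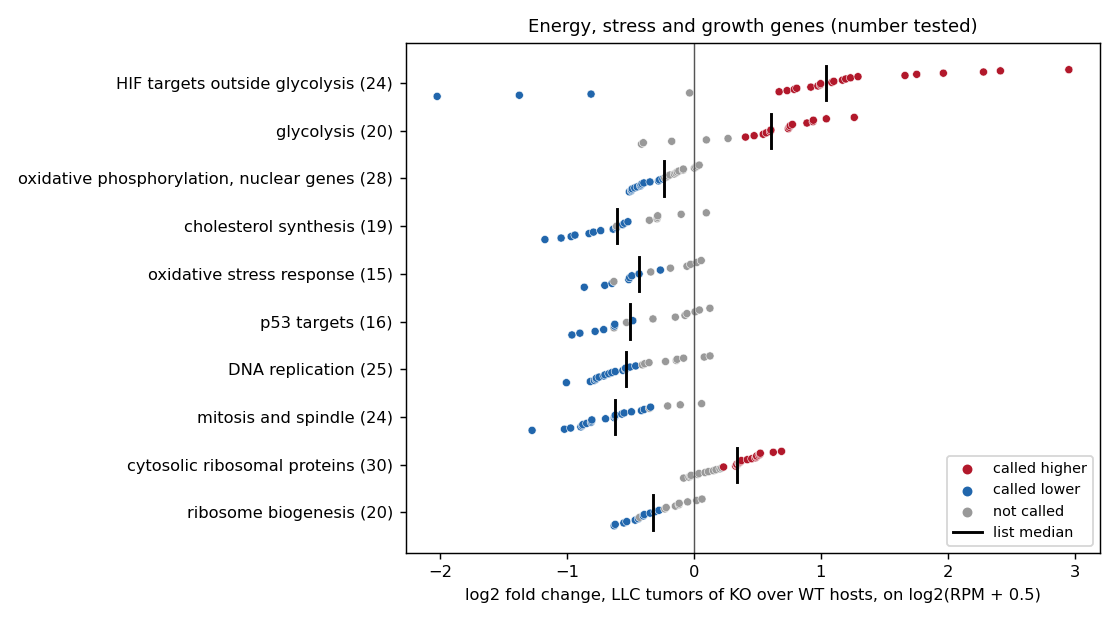
Log2 fold changes of LLC tumors of KO over WT hosts on log2(RPM + 0.5), 1 point per gene, for 10 lists of energy, stress and growth genes, with the number of genes tested in brackets. Red points were called higher, blue points lower and grey points were not called; black bars mark the list medians, from 1.04 for HIF targets outside glycolysis to -0.62 for mitosis and spindle.

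Genes of epithelial and mesenchymal cell state changed in part, and a bulk library does not show which cells they come from. *Vim*, the intermediate filament of mesenchymal cells, had 7245 and 6848 RPM in the KO pools, against 3941 and 3995 RPM in the WT pools (log2 fold change 0.83, SE 0.12), *Zeb2*, a repressor of epithelial genes, rose by 0.52 on the log2 scale and *Ocln*, a protein of tight junctions, by 1.01. *Krt18* was called higher (log2 fold change 0.80, SE 0.17, adjusted p = 0.0105) and *Cdh11*, a cadherin of mesenchymal cells, lower, with 15.7 and 13.7 RPM in the KO pools, against 43 and 56.8 RPM in the WT pools. Of 12 tested genes of the list of epithelial-mesenchymal transition 4 rose and 1 fell, and 6 others were too low to test. The call of *Cdh11* held in 1 of the 4 fits that leave out an LLC library, and that of *Krt18* in 3.

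Genes that ERK signaling turns on as its own brakes were higher in part. Of 17 genes of RAS and MAPK feedback 5 rose and 1 fell, with a median log2 fold change of 0.31. *Spry1* and *Spry2*, inhibitors of receptor tyrosine kinases, had 14.3 and 12.8 RPM and 75.5 and 76.3 RPM in KO, against 5.2 and 5.1 RPM and 39.8 and 40.9 RPM in WT. The transcription factor gene *Etv1* had 66.9 and 56.9 RPM in the KO pools, against 37.7 and 30.2 RPM in the WT pools and *Spred1* had 247 and 261 RPM in the KO pools, against 178 and 132 RPM in the WT pools. *Etv4*, of the same family as *Etv1*, fell by 0.54. For *Spry1*, *Spry2*, *Etv1* and *Spred1* the host effect differed between LLC and B16 tumors, by 1.44, 1.03, 0.93 and 0.83. Without WT pool 1, 12 genes of the list were higher, with TMM factors 8 and with the LLC libraries fitted alone 3, and the median was 0.08 without WT pool 2.

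Markers of blood vessels were lower in KO hosts, far more so in KO pool 1 than in KO pool 2. Of 25 blood endothelial genes 21 fell and none rose, with a median log2 fold change of -2.66, and of 12 tested mural cell genes 6 fell, with a median of -1.73. Set against the WT mean, the endothelial median was -3.49 in KO pool 1 and -1.35 in KO pool 2, and the mural median was -2.52 and -0.63. The summed level of the 25 endothelial genes was 209 and 363 RPM in KO, against 843 and 690.45 RPM in WT. *Clec14a*, a lectin of the vessel wall, had 0.4 and 2.1 RPM in the KO pools, against 10.1 and 9.25 RPM in the WT pools (log2 fold change -2.73, SE 0.44, adjusted p = 0.00378), *Eng*, a co-receptor of TGF-beta on endothelium, had 63.2 and 71.1 RPM in the KO pools, against 117 and 116 RPM in the WT pools (log2 fold change -0.79, SE 0.08, adjusted p = 0.00118), and *Cd93* had 73.8 and 94.8 RPM in the KO pools, against 169 and 162 RPM in the WT pools. Both KO pools lay below both WT pools for all 3 genes. Other genes were nearly absent in one KO pool only: the endothelial receptor gene *Tie1* had 0.05 and 5.65 RPM in the KO pools, against 25.6 and 15.3 RPM in the WT pools, and the guidance receptor gene *Robo4* had 0.05 and 2.15 RPM in the KO pools, against 16.7 and 8.8 RPM in the WT pools. Of the mural genes, the receptor *Pdgfrb* had 15.4 and 25.5 RPM in the KO pools, against 65.4 and 64.1 RPM in the WT pools (log2 fold change -1.68, SE 0.20), and the smooth muscle actin gene *Acta2* had 5.25 and 20 RPM in the KO pools, against 73.5 and 71.9 RPM in the WT pools. *Rgs5*, the best known pericyte marker, had 0.15 and 39.8 RPM in the KO pools, against 73.8 and 43.3 RPM in the WT pools and was not called (adjusted p = 0.109). Without WT pool 1 the counts were 11 endothelial and 3 mural genes, and with the LLC libraries fitted alone 6 and 1.

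Of 25 factors that promote or restrain vessel growth 6 rose and 5 fell, beside 15.1 and 23.1 percent of all tested genes. *Vegfa*, the main growth factor of endothelial cells, had 307 and 304 RPM in the KO pools, against 178 and 116 RPM in the WT pools (log2 fold change 1.09, SE 0.17, adjusted p = 0.00358), its relative *Pgf* (placental growth factor) had 29.5 and 40.6 RPM in the KO pools, against 4.6 and 5.2 RPM in the WT pools (log2 fold change 2.70, SE 0.18, adjusted p = 0.000238), and *Vegfc*, which acts on lymphatic vessels, had 16.7 and 16.8 RPM in the KO pools, against 9 and 7.45 RPM in the WT pools (log2 fold change 0.98). *Fgf2*, another angiogenic growth factor, had 15.3 and 22.1 RPM in the KO pools, against 15.6 and 21.9 RPM in the WT pools, with the groups overlapping. Of the genes that fell, *Pdgfb*, the ligand that recruits pericytes, had 2.65 and 6.9 RPM in the KO pools, against 17.7 and 13 RPM in the WT pools, the repellent semaphorin gene *Sema3f* had 2.2 and 4.05 RPM in the KO pools, against 11.7 and 9.45 RPM in the WT pools, and *Angptl4* had 85.2 and 102 RPM in the KO pools, against 158 and 154 RPM in the WT pools. For *Vegfa* the difference from B16 was 0.80 (adjusted p = 0.0609), and for *Pgf* it was 2.35 (adjusted p = 0.00418). Without WT pool 2 the lower count was 3, and without KO pool 1 it was 2.

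*Lyve1*, a hyaluronan receptor of lymphatic endothelium and of some macrophages, had 127 and 120.1 RPM in the KO pools, against 22.4 and 18.2 RPM in the WT pools (log2 fold change 2.59, SE 0.68, adjusted p = 0.0218), while the lymphatic receptor gene *Flt4* had 0.05 and 1 RPM in the KO pools, against 3.35 and 2.35 RPM in the WT pools. Of 7 lymphatic genes 4 could be tested, and the other 2 of these were not called. The call of *Lyve1* held in 1 of the 4 fits that leave out an LLC library. The host effect on *Lyve1* did not differ between the tumors beyond the spread (2.47, adjusted p = 0.119).

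Collagens did not move as a block. Of 19 tested collagen genes 8 fell and 4 rose, with a median log2 fold change of -0.29. Chains of the fibrillar collagens I and V fell: *Col1a1* had 2168 and 2415 RPM in the KO pools, against 5772 and 9699.6 RPM in the WT pools (log2 fold change -1.71, SE 0.22, adjusted p = 0.002), its partner *Col1a2* had 2076 and 2264 RPM in the KO pools, against 4839 and 8793 RPM in the WT pools, and *Col5a2* fell by 1.53 on the log2 scale. *Col3a1*, the most abundant collagen here, had 14772 and 13397 RPM in the KO pools, against 11587 and 23963 RPM in the WT pools and was not called, and WT pool 1 lay below both KO pools. *Col12a1*, which sits on the surface of fibrils, had 40.5 and 35.9 RPM in the KO pools, against 155 and 158 RPM in the WT pools (log2 fold change -2.02, SE 0.22, adjusted p = 0.00126). Chains of beaded-filament collagen VI rose instead, *Col6a1* with 2285 and 1938 RPM in the KO pools, against 858 and 1143 RPM in the WT pools (log2 fold change 1.09, SE 0.17, adjusted p = 0.00354) and *Col6a2* with 1501 and 1258 RPM in the KO pools, against 706 and 939 RPM in the WT pools. Of the basement membrane chains, *Col4a5* rose 3.35 on the log2 scale and *Col15a1* fell by 2.76, while *Col4a1* and *Col4a2* were not called, with log2 fold changes of 0.16 and 0.15. The host effect on *Col6a1* was larger in LLC than in B16 tumors (1.74, adjusted p = 0.00854), and so were those on *Col6a2* (1.41) and *Col4a5* (3.08). The counts were 6 lower and 2 higher without KO pool 1 and 5 and 3 without KO pool 2.

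Markers of fibroblasts fell in part. Of 19 tested genes 8 fell and none rose, with a median of -0.60. *Postn*, which codes for periostin of the tumor matrix, had 104 and 98.8 RPM in the KO pools, against 429.9 and 796 RPM in the WT pools (log2 fold change -2.52, SE 0.31, adjusted p = 0.0017), and the matrix proteins *Fbln1* and *Fbln2* had 33.2 and 40.4 RPM and 113 and 111 RPM in KO, against 85.2 and 101 RPM and 313 and 419.5 RPM in WT. *Cxcl12*, the chemokine of stromal cells, had 19.1 and 28.4 RPM in the KO pools, against 129 and 78.5 RPM in the WT pools (log2 fold change -2.09, SE 0.28). The dermatopontin gene *Dpt* ran against this, with 1002 and 964 RPM in the KO pools, against 415 and 723 RPM in the WT pools, and was not called (adjusted p = 0.0609). The WT pools differed by a median of -0.53 on the log2 scale, pool 1 below pool 2, which is close to the list's own median. Without KO pool 1 the count was 5, and with TMM factors 2 genes rose and 7 fell.

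Matrix proteases split by enzyme. Of 21 proteases and inhibitors 8 rose and 6 fell. The stromelysin genes *Mmp3* and *Mmp10*, neighbors on chromosome 9, had 589 and 434 RPM and 10.9 and 6.8 RPM in KO, against 175 and 94.5 RPM and 2.25 and 1.55 RPM in WT. *Plau*, the urokinase that activates plasmin, had 440.1 and 444 RPM in the KO pools, against 199 and 177 RPM in the WT pools (log2 fold change 1.23, SE 0.15, adjusted p = 0.00156). The gelatinases fell: *Mmp9*, made by neutrophils and macrophages, had 25.9 and 24 RPM in the KO pools, against 89.1 and 112 RPM in the WT pools (log2 fold change -1.98, SE 0.17, adjusted p = 0.000483), and *Mmp2*, made by fibroblasts, had 232 and 261 RPM in the KO pools, against 490.3 and 911 RPM in the WT pools. The host effect on *Mmp3* and *Plau* differed between LLC and B16 tumors, by 3.22 and 1.49. Counts moved to 5 higher and 2 lower without KO pool 1, without WT pool 2 they were 5 and 4, without KO pool 2 they were 6 and 3, and with TMM factors they were 8 and 4.

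Of 21 tested laminins and integrins, ligands and receptors of adhesion to matrix, 5 were higher and 4 lower, which lies near the 15.1 and 23.1 percent of all tested genes. *Itgav*, the alpha V integrin, had 252 and 242 RPM in the KO pools, against 131 and 116 RPM in the WT pools (log2 fold change 1.00, SE 0.08, adjusted p = 0.000368), and its partner *Itgb8*, with which it activates TGF-beta, had 3.95 and 5.3 RPM in the KO pools, against 1.2 and 1.3 RPM in the WT pools. The partner *Itgb3*, a marker of platelets, osteoclasts and activated endothelium, had 32.8 and 28.8 RPM in the KO pools, against 58.1 and 103 RPM in the WT pools. *Lama4*, a chain of vessel laminin, had 55.5 and 68.7 RPM in the KO pools, against 106 and 199 RPM in the WT pools. These counts fell to 2 higher and 2 lower without KO pool 1.

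**Figure D3:**
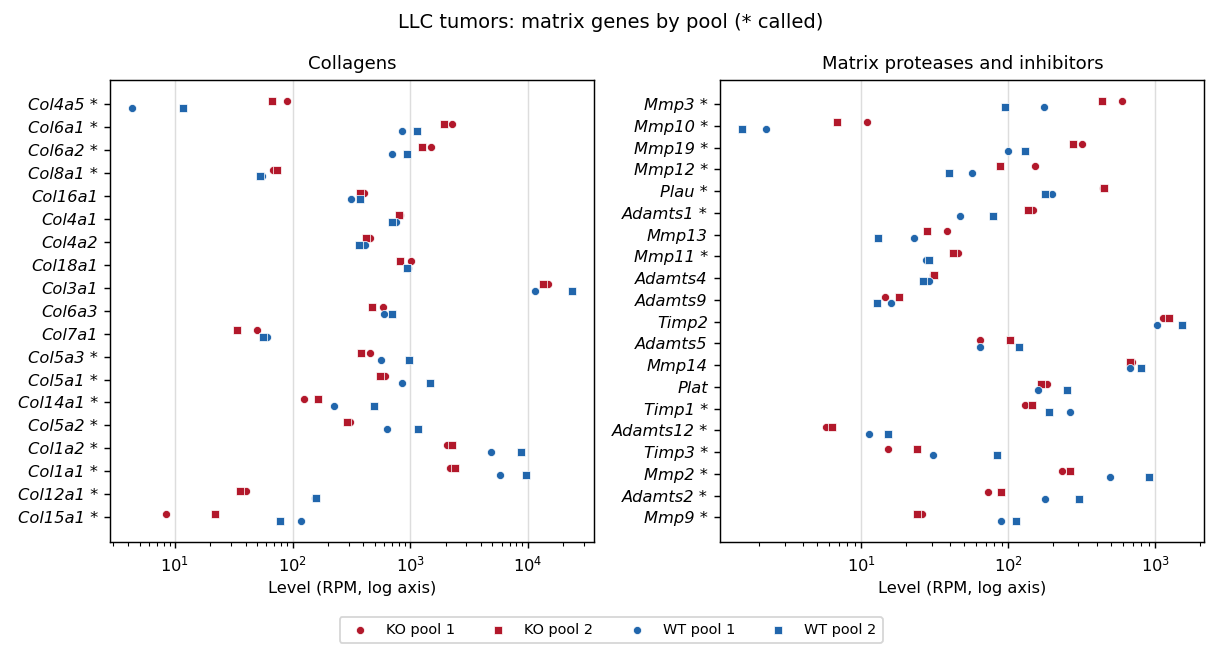
Levels in RPM, on a log axis, of 19 collagen genes (left) and 20 matrix proteases and inhibitors (right) in LLC tumors, 1 point per pool of 3 tumors, KO pools in red above WT pools in blue, ordered by log2 fold change with called genes starred. Type VI chains lie to the right in KO, with Col6a1 at 2285 and 1938 RPM in KO and 858 and 1143 RPM in WT, and type I chains lie to the left.

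Lymphocyte genes were low in all pools and lower in KO. Of 12 tested T cell genes 11 fell, and of 14 NK and cytotoxic genes 13 fell, with medians of -1.41 and -1.52. The tested genes of the T cell list summed to 6.15 and 8.4 RPM in KO, against 30.5 and 22.5 RPM in WT. Of 21 list members 9, Cd3e and Cd8a among them, were too low to test. At such levels a gene can reach the 1 RPM needed for testing through the WT pools alone, so these counts describe the tested genes only. *Il2rb*, the receptor chain for IL-2 and IL-15, had 1.85 and 2.65 RPM in the KO pools, against 14.7 and 11.5 RPM in the WT pools (log2 fold change -2.31, SE 0.25, adjusted p = 0.00118), *Prf1*, the pore protein of cytotoxic granules, had 0.8 and 1.5 RPM in the KO pools, against 10.1 and 6.2 RPM in the WT pools, and the kinase gene *Lck* had 0.6 and 1.25 RPM in the KO pools, against 5.65 and 4.4 RPM in the WT pools. The host effect on these 3 genes was lower in LLC than in B16 tumors by the test of the difference (-2.51, -2.43 and -1.68). Of the plasma cell genes, the light chain gene *Igkc* had 0.25 and 2.95 RPM in the KO pools, against 124 and 26.8 RPM in the WT pools and *Jchain* had 0.1 and 1 RPM in the KO pools, against 31.5 and 3.55 RPM in the WT pools, so that the WT pools differed from each other by more than 4-fold. Of 11 tested B and plasma cell genes 6 fell. Leaving out KO pool 1 gave 7 T cell, 8 NK and 3 B cell genes.

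Of 25 macrophage and monocyte genes 6 fell and 1 rose, so that the share of lower genes was near that of all tested genes (23.1 percent). The median was -0.22, and -0.08 without WT pool 2. *Gpnmb*, a glycoprotein of macrophages and melanocytes, had 55.3 and 57.9 RPM in the KO pools, against 107 and 103 RPM in the WT pools (log2 fold change -0.89, SE 0.07, adjusted p = 0.000368), *Apoe*, the lipid carrier, had 799.8 and 1313 RPM in the KO pools, against 1877 and 2675 RPM in the WT pools, and the fractalkine receptor gene *Cx3cr1* had 1.6 and 2.4 RPM in the KO pools, against 4.9 and 6.75 RPM in the WT pools. The mannose receptor gene *Mrc1* had 672 and 742 RPM in the KO pools, against 476 and 425 RPM in the WT pools and was called higher, in 1 of the 4 fits without an LLC library. The monocyte marker *Ly6c2* had 5.3 and 8.65 RPM in the KO pools, against 88.3 and 20.95 RPM in the WT pools, where WT pool 1 stood apart from the other 3 pools. Of 12 tested dendritic cell genes 5 fell, with *Flt3*, a receptor of their precursors, at 2.35 and 3.45 RPM in the KO pools, against 13.1 and 12.3 RPM in the WT pools, and *Cd209a* rose. Of 16 tested neutrophil genes 4 fell and 1 rose, likewise near or below the shares of all genes, with *Mmp8* and *Mmp9* among the lower ones and the decoy receptor gene *Il1r2* higher, with 44.4 and 61.8 RPM in the KO pools, against 27.1 and 18.3 RPM in the WT pools. The defining neutrophil genes *S100a8* and *S100a9* were not called. Without KO pool 1 the macrophage counts were 3 lower and 0 higher and 3 dendritic cell genes fell, without WT pool 1 there were 5 higher neutrophil genes and 2 higher macrophage genes, and without WT pool 2 or KO pool 2 no macrophage and no dendritic cell gene was called higher.

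Mast cell genes were higher in KO hosts, and mainly in KO pool 2. Of 10 genes 8 rose and none fell, with a median log2 fold change of 1.84, which was 1.21 in KO pool 1 and 2.50 in KO pool 2, and the 2 WT pools differed by 1.12. The carboxypeptidase gene *Cpa3* had 29.4 and 71.9 RPM in the KO pools, against 15.5 and 6.8 RPM in the WT pools (log2 fold change 2.11, SE 0.47, adjusted p = 0.0124), and *Ms4a2*, a chain of the IgE receptor, had 1.15 and 1.9 RPM in the KO pools, against 0.4 and 0.1 RPM in the WT pools. *Kit*, the receptor on which mast cells depend, was not called (log2 fold change -0.42). The count was 2 without WT pool 2, 1 without KO pool 2 and 0 in limma on the LLC libraries alone, with 8 at an unadjusted p under 0.05.

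Interferon-induced genes and antigen presentation were lower in KO hosts, with a wide spread between pools. Of 26 interferon response genes 17 fell, with a median of -1.05, and of 23 antigen presentation genes 20 fell, with a median of -0.89. None rose in either list. *Oasl2*, an antiviral gene, had 66.6 and 91.7 RPM in the KO pools, against 207 and 139.8 RPM in the WT pools (log2 fold change -1.12, SE 0.21, adjusted p = 0.00629), and the signal transducer *Stat2* had 46.8 and 63.6 RPM in the KO pools, against 141 and 92.6 RPM in the WT pools. In both genes WT pool 1 was highest and KO pool 1 lowest. Of the class I genes, *H2-K1* had 352 and 516 RPM in the KO pools, against 1039.7 and 1007 RPM in the WT pools and the peptide transporter gene *Tap1* had 36.8 and 42.5 RPM in the KO pools, against 97.9 and 79.6 RPM in the WT pools (log2 fold change -1.15, SE 0.13, adjusted p = 0.00124). Genes such as *H2-Q6* and *H2-Q7* are near-identical copies, so their counts are uncertain. The class II gene *H2-Ab1* had 142 and 186 RPM in the KO pools, against 244 and 391 RPM in the WT pools. Without KO pool 1 the counts were 2 interferon and 6 antigen presentation genes, without WT pool 1 there were 10 interferon genes, and limma on the LLC libraries alone called 0 interferon genes, with 13 at an unadjusted p under 0.05. Of the 26 interferon genes, 24 were lower in both KO pools than in both WT pools, against 42 percent of all tested genes. These genes share the same pools, so the count describes the pools and is no further support. The WT pools differed by a median of 0.74 on the log2 scale over this list. Set against the WT mean, the list median was -1.29 in KO pool 1 and -0.76 in KO pool 2.

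Of 25 tested chemokine genes 4 rose and 5 fell, which is near the share of all tested genes (15.1 and 23.1 percent). *Cxcl13*, the attractant of B cells, had 23.4 and 43.8 RPM in the KO pools, against 5.6 and 2.2 RPM in the WT pools (log2 fold change 3.003, SE 0.45, adjusted p = 0.00311), while *Cxcl16*, which attracts activated T cells and NKT cells, had 21.3 and 24.9 RPM in the KO pools, against 54.7 and 53 RPM in the WT pools (log2 fold change -1.21, SE 0.14). *Ccl2*, the attractant of monocytes, had 392 and 478 RPM in the KO pools, against 304 and 126 RPM in the WT pools and was called in 1 of the 4 fits without an LLC library. Of 20 tested cytokine genes 5 rose and 2 fell. *Osm* and *Lif*, relatives of IL-6, had 24.9 and 21.3 RPM and 71.7 and 70.6 RPM in KO, against 7.35 and 4.05 RPM and 34.7 and 19.5 RPM in WT. *Il33*, an alarm signal of damaged cells, had 514 and 436 RPM in the KO pools, against 244 and 161 RPM in the WT pools, and *Ptgs2*, the enzyme COX-2, had 366 and 337 RPM in the KO pools, against 133 and 44.2 RPM in the WT pools. *Il1b* had 135 and 106 RPM in the KO pools, against 63.7 and 26.3 RPM in the WT pools and was not called (adjusted p = 0.0818). The effect on *Cxcl13* was larger in LLC than in B16 tumors by 4.66, that on *Lif* by 1.44 and that on *Osm* by 1.87. For the chemokines, 9 rose without WT pool 1, 1 without WT pool 2 and 2 without KO pool 1, where also 3 fell. For the cytokines the counts were 2 higher and 0 lower without KO pool 1, and 4 and 1 without WT pool 2.

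Ligands and receptors that restrain immune cells were lower in 4 of 13 tested genes and higher in 1, beside 23.1 and 15.1 percent of all tested genes. *Sirpa*, the receptor for CD47 on macrophages, had 169 and 210.3 RPM in the KO pools, against 375 and 506 RPM in the WT pools (log2 fold change -1.21, SE 0.15, adjusted p = 0.00176), and *Cd276* (B7-H3) had 102 and 92.7 RPM in the KO pools, against 144 and 158 RPM in the WT pools. *Pvr*, the ligand of TIGIT, had 94.8 and 97.7 RPM in the KO pools, against 58.5 and 41.8 RPM in the WT pools (log2 fold change 0.95, SE 0.15), and *Tigit* itself was low, with 1.45 and 0.95 RPM in the KO pools, against 4.25 and 3.45 RPM in the WT pools. Without WT pool 1 there were 2 higher genes.

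Of 20 complement genes 2 were higher and 2 lower, below the shares of all tested genes. *C7*, a late component of the lytic complex, had 9.6 and 10 RPM in the KO pools, against 0.15 and 0.1 RPM in the WT pools (log2 fold change 4.04, SE 0.18, adjusted p = 6.16e-05), and its neighbor on chromosome 15, *C6*, had 7.15 and 16.2 RPM in the KO pools, against 4.65 and 3.9 RPM in the WT pools and was not called. *Masp1*, a protease of the lectin pathway, had 32.6 and 26.7 RPM in the KO pools, against 15.6 and 16.5 RPM in the WT pools. Without WT pool 1, 4 genes of the list fell, without WT pool 2 only 1 fell, and without KO pool 1 there were 3 higher and 0 lower.

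Signaling pathways of development changed at a few members each. In the TGF-beta and BMP list 6 of 26 tested genes rose and 6 fell, the lower share being near that of all genes. The receptors *Tgfbr1*, *Bmpr2* and *Bmpr1a* had 60.3 and 60.7, 122 and 126 and 117 and 118 RPM in KO, against 32.7 and 34.9, 76.9 and 66.3 and 72 and 69.1 RPM in WT, and the inhibitor *Smad7* rose by 1.07 on the log2 scale. The BMP antagonist gene *Grem1* had 89.95 and 104 RPM in the KO pools, against 49.1 and 28.95 RPM in the WT pools. In B16 tumors the effects on *Tgfbr1* and *Bmpr2* were lower by 0.93 and 0.97. Without KO pool 1 the counts were 5 higher and 1 lower, and without KO pool 2 they were 5 and 3.

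In the WNT list 7 of 20 tested genes fell and none rose. The receptor gene *Fzd1* had 13.9 and 13.9 RPM in the KO pools, against 46.7 and 43.3 RPM in the WT pools (log2 fold change -1.66, SE 0.12, adjusted p = 0.000306), the secreted antagonist *Sfrp2* had 26.6 and 26.8 RPM in the KO pools, against 85 and 218 RPM in the WT pools, and *Axin2*, a common target of the pathway, had 5.65 and 7.2 RPM in the KO pools, against 9 and 12.4 RPM in the WT pools, called in 1 of the 4 fits without an LLC library. The count of lower genes was 3 without KO pool 1, and 1 gene rose with TMM factors. In the Notch list 5 of 12 tested genes fell and none rose, with a median of -0.81. The target *Hes1* had 6.7 and 6.6 RPM in the KO pools, against 15.4 and 17.9 RPM in the WT pools (log2 fold change -1.25, SE 0.14, adjusted p = 0.0012), the ligand *Jag1* had 11.2 and 12.8 RPM in the KO pools, against 20.9 and 30.6 RPM in the WT pools, and *Notch4*, a receptor of endothelial cells, had 3.75 and 4.95 RPM in the KO pools, against 16.5 and 10.8 RPM in the WT pools. In the IGF list 5 of 12 tested genes rose and 1 fell. The receptors *Igf2r*, *Igf1r* and *Insr* rose by 0.78, 0.44 and 0.44 on the log2 scale, and the binding protein gene *Igfbp7*, much expressed in vessels, had 16.3 and 49.8 RPM in the KO pools, against 113 and 93 RPM in the WT pools. Without KO pool 2 the IGF count was 3 higher.

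Of the chemerin system, *Rarres2*, which codes for chemerin, had 52.3 and 53.2 RPM in the KO pools, against 102 and 98.3 RPM in the WT pools (log2 fold change -0.92, SE 0.27, adjusted p = 0.0333). The pools of each group agreed closely and did not overlap, but the call of *Rarres2* was lost with each of the 4 LLC libraries left out and with TMM factors (adjusted p = 0.0531). The B16 pools, which share the estimate of the spread, had 19.6 and 21.7 RPM in KO, against 22.4 and 46.2 RPM in WT. In the fit of the LLC libraries alone *Rarres2* passed (adjusted p = 0.0261). The receptor *Cmklr1* had 23.4 and 30.8 RPM in the KO pools, against 38.9 and 56.2 RPM in the WT pools (adjusted p = 0.066), and *Gpr1* had 2.35 and 3.25 RPM in the KO pools, against 1.95 and 7.4 RPM in the WT pools (adjusted p = 0.521). Neither was called. Between LLC and B16 tumors the effect on *Rarres2* did not differ beyond the spread (-0.29, adjusted p = 0.63).

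The 2 KO pools differed from each other in genes of fat, blood and nerve. Adipocyte genes had a median difference from the WT mean of -0.68 in KO pool 1 and 1.83 in KO pool 2, and erythroid genes of -0.92 and 1.99, and no gene of either list was called. Without KO pool 1, 4 adipocyte genes and 1 erythroid gene were called higher. The adipocyte protease gene *Cfd* had 0.35 and 41.3 RPM in the KO pools, against 1.4 and 1.4 RPM in the WT pools, and *Car3*, an abundant enzyme of fat, had 0.1 and 35.4 RPM in the KO pools, against 3.25 and 2.9 RPM in the WT pools. The hemoglobin gene *Hbb-bs* had 17.1 and 167 RPM in the KO pools, against 53.8 and 19.7 RPM in the WT pools. KO pool 2 was thus the highest of the 4 pools for all 3 genes. The list of nerve and Schwann cells had medians of -0.78 and 0.19. Of its 11 tested genes 1 was called higher and 1 lower, below the 15.1 and 23.1 percent of all tested genes. Muscle genes reached at most 2.2 RPM (*Tnni2*) and keratinocyte genes at most 4.35 RPM (*Krt10*) in any pool, with Acta1 at most at 0.5 RPM and Krt5 and Krt14 at most at 0.05 RPM. The vessel and mast cell genes moved with these differences, higher in KO pool 2 than in KO pool 1, and the part of attached tissue in those results was not tested. For many other lists the medians of the 2 KO pools were close to each other. Among them were the HIF targets, glycolysis, nuclear genes of oxidative phosphorylation (-0.26 and -0.24) and ribosome biogenesis (-0.33 and -0.29). A difference that both KO pools share would not show in this comparison, and was not tested.

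**Figure D4:**
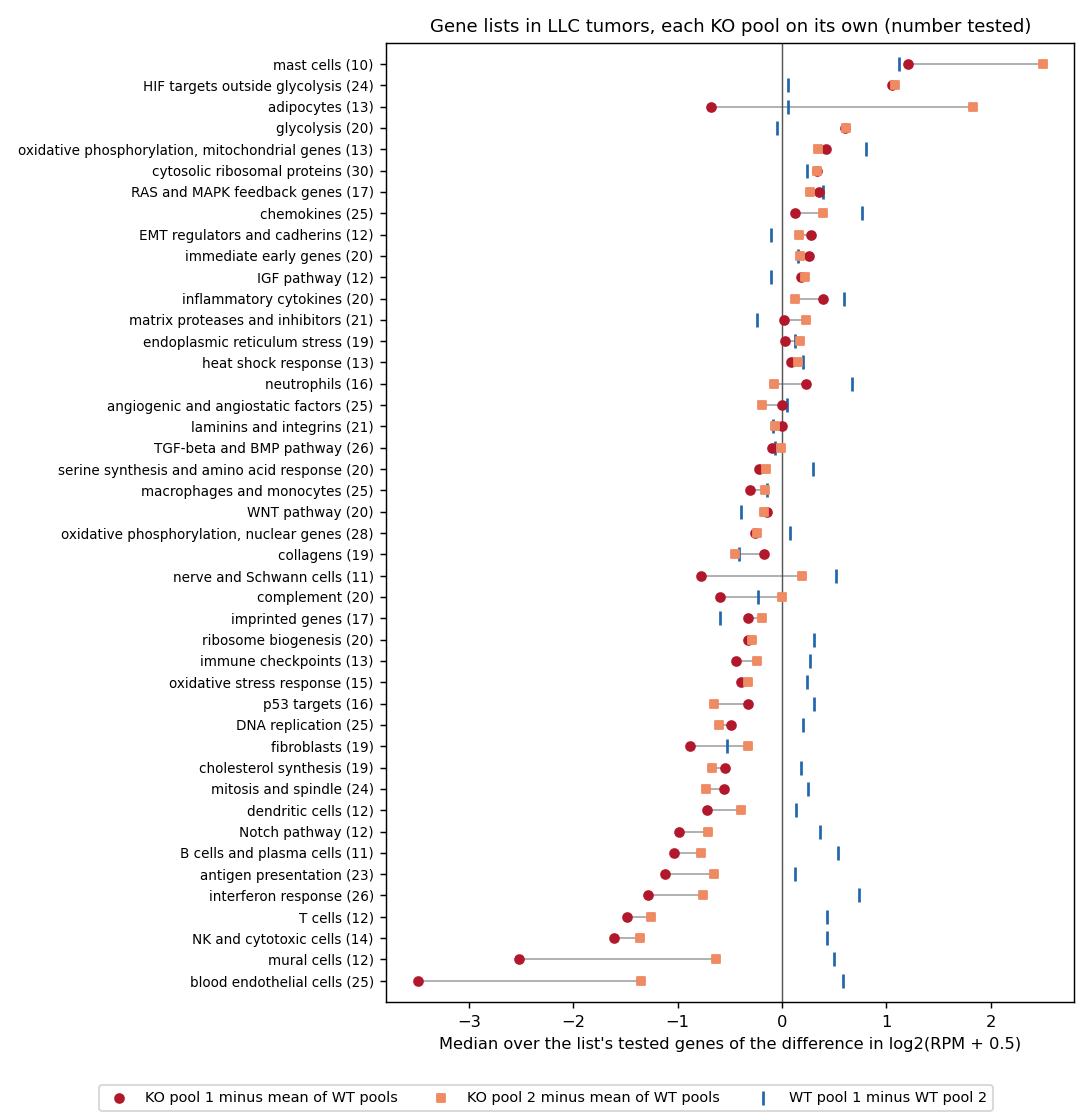
Median over the tested genes of each list with at least 10 tested genes of the difference in log2(RPM + 0.5): KO pool 1 (red circles) and KO pool 2 (orange squares), each minus the mean of the WT pools, and WT pool 1 minus WT pool 2 (blue ticks). The KO pools coincide for HIF targets outside glycolysis (1.05 and 1.08) and lie far apart for adipocytes (-0.68 and 1.83) and blood endothelial cells (-3.49 and -1.35).

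Imprinted genes, of which a cell uses 1 parental copy, fell in 6 of 17 tested genes and rose in 2. *Mest* had 1.95 and 4.5 RPM in the KO pools, against 21.7 and 19.1 RPM in the WT pools (log2 fold change -2.57, SE 0.38, adjusted p = 0.00284), *Grb10*, an inhibitor of insulin signaling, had 69.6 and 73.5 RPM in the KO pools, against 133 and 201 RPM in the WT pools, and *Cdkn1c*, an inhibitor of the cell cycle, had 1.6 and 1.9 RPM in the KO pools, against 5.15 and 8.9 RPM in the WT pools. *Peg3* rose, with 64.9 and 46.95 RPM in the KO pools, against 20.2 and 22.2 RPM in the WT pools, and so did *Igf2r*. *H19* had 411 and 389.7 RPM in the KO pools, against 30.1 and 221 RPM in the WT pools, with WT pool 1 far below the other 3 pools, and was not called. Relative to all tested genes the list median was -0.21, and it was 0.10 without WT pool 2, so the sign of this median rests on that pool.

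By chromosome, the median log2 fold change ranged from -0.17 on chromosome 11 to 0.06 on chromosome 12 among the autosomes and was -0.02 on X. Chromosome 12 had 23.7% of its 493 tested genes called higher and 15.6% lower, against 11.1% and 27.3% of 1203 genes on chromosome 11. On the Y chromosome 5 of 6 tested genes were called higher and 1 lower. *Malat1* and *Neat1*, nuclear RNAs that neighbor each other on chromosome 19, moved apart. *Malat1* had 344 and 308 RPM in the KO pools, against 133 and 116 RPM in the WT pools (log2 fold change 1.39, SE 0.16, adjusted p = 0.00128). *Neat1* had 631 and 656 RPM in the KO pools, against 868 and 851 RPM in the WT pools (log2 fold change -0.42, adjusted p = 0.0146). The call of *Neat1* was lost in limma on the LLC libraries alone (adjusted p = 0.0526), and its log2 fold change was -0.31 with TMM factors.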

How the data were processed

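Libraries of pooled tumors (TruSeq, paired reads) were trimmed, aligned to GRCm38.p4 (mm10) and counted per gene by the authors with Trimmomatic, STAR and HTSeq, whose versions are not given in the sources used here. The deposited value of a gene is a score, its reads scaled by the authors so that a library sums to about 20 M, then rounded to whole numbers. Dividing by 20 gave RPM. Rounding merges neighboring read counts in the deeper libraries, so count models were not used. Depth was estimated from the spacing of low values and is least certain for KO pool 1.

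A gene was tested if 2 or more of the 8 libraries reached 1 RPM. limma 3.58.1 (R 4.3.3, Python 3.11.15) was run on log2(RPM + 0.5) with a variance trend, 1 model of the 4 groups, 4 residual and 3.68 prior degrees of freedom, and Benjamini-Hochberg adjustment over all 14706 genes. The procedure was tested on simulated data with independent normal noise at the spread that the fit itself estimated. Such data cannot show how well 2 pools stand for a group. Positions come from GENCODE release 21 (99.1% of the identifiers found; 126 symbols stand on more than 1 gene), promoters from RefSeq. Each list is described by its counts and median, without a set test. The gene lists, like the comparison, were chosen with earlier results of these data known. Named genes are the 12 furthest in each direction, up to 4 called genes of each list with the smallest adjusted p, up to 2 against its median, the genes of highest level in a list with no call, and the chemerin system, the sex-linked genes, *Vegfa* and *Fgf2*; other list members were chosen after their values were seen. Some genes that this rule names are not reported here, but count in their lists. Alternatives were TMM and median-of-ratios scaling, a pseudocount of 0.05 or 2 RPM, testing every gene or only those reaching 5 RPM, the LLC libraries alone, robust moderation, the replicate number as a block, and each library left out. The counts of list members without each LLC library were added after seeing the data.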

Additional observations from a re-analysis of the deposited data

Results flagged for a closer look

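The difference between KO and WT hosts (log2 fold change, KO over WT) was not the same in LLC and B16 tumors for 2236 of the 14706 genes. The calls rest on limma's test of the difference between the tumors with Benjamini-Hochberg adjustment. Of these genes, 185 did not reach 1 RPM in any B16 pool. Of the genes described above as furthest apart between KO and WT in LLC tumors, 19 reached 1 RPM in a B16 pool and 17 of these passed this test. They were chosen for their LLC effect, which enters the difference, so its size is a description. The values that follow are the effect in LLC tumors minus the effect in B16 tumors on the log2 scale, from 2 pools in each group.

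Of the genes that were higher in LLC tumors of KO hosts, the difference was 4.66 for *Cxcl13*, 3.73 for *Ptn*, 3.17 for *Edil3*, 3.08 for *Col4a5*, 3.02 for *Amot* and 2.83 for *Enpp2*. For the disulfide oxidase gene *Ero1l* it was 2.67, for the growth factor gene *Pgf* 2.35 and for the hormone gene *Stc1* 2.24.

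Of the genes that were lower in LLC tumors of KO hosts, the ribosomal RNA-like *Mir6236* and *Lars2* had differences of -5.46 and -4.35. The secreted and matrix proteins followed with -3.43 for *Dkk3*, -3.25 for *Fibin* and -2.58 for *Olfml2a*. The acute phase gene *Saa3* had -2.80, the collagenase gene *Mmp8* had -2.75, and *Acp5* had -2.52. The Y-linked genes *Ddx3y*, *Eif2s3y*, *Kdm5d* and *Uty* had 0 RPM in all B16 pools, so they differed between KO and WT hosts in LLC tumors only. With 2 pools a group, a host effect that depends on the tumor cannot be told apart from other differences between the libraries. These include collection day, host sex, the grafted cells and the RNA preparation.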

How the results depend on the processing

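With 2 pools a group, each call depends on both pools. Of the called genes, 2226 were higher and 3402 lower, and leaving out 1 of the 8 libraries gave 1160 to 2472 higher and 1521 to 3181 lower, with the fewest calls without LLC KO pool 1. Without LLC KO pool 2 there were 1253 higher and 1842 lower genes, and the LLC libraries alone gave 1066 and 1104. Fitting fewer libraries leaves fewer residual degrees of freedom. Other scalings, pseudocounts, filters and robust moderation gave counts within 1.5 times of these. The replicate number as a block, which no source says pairs the pools (correlation of same-numbered deviations -0.03), gave 2021 higher and 3223 lower genes in the fit with the replicate block. Of the lists whose median lay more than 0.1 from that of all genes, 10 changed sign relative to it under at least 1 alternative, 4 of them by more than the SD between pools. The imprinted genes ranged from -0.36 to 0.10 over the fits without a library, with the highest value without LLC WT pool 2. The erythroid genes ranged from -0.82 without LLC KO pool 2 to 2.09 without LLC KO pool 1, and the neutrophil genes from -0.27 without LLC WT pool 2 to 0.54 without LLC WT pool 1. The lymphatic endothelial median was 1.30 with a filter of 5 RPM. The other 6 changed sign by less: adipocytes had -0.58 without LLC KO pool 2, nerve and Schwann cells 0.28 and complement 0.09 without LLC KO pool 1, simple epithelial keratins -0.13 without LLC WT pool 1, and macrophages and monocytes 0.02 and chemokines -0.01 without LLC WT pool 2, where complement had 0.06. The cause was not tested. In the LLC libraries 3 reads correspond to 0.0973 to 0.171 RPM, which limits what can be said of genes near 1 RPM.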
